A study of Rattus norvegicus with 16 samples.

Results

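The interleukin-6 (IL-6) pathway of the liver was followed through 10 genes. No rule on their values was used to choose them by symbol for their roles in it, but earlier results of these data were known. They are the ligand Il6, the receptor genes Il6r, Il6st, Lifr and Osmr, the kinase Jak2, the transcription factor Stat3, the feedback inhibitors Socs1 and Socs3, and the target kinase Pim1. All 10 were among the 17055 gene symbols for which reads had been counted. IL-6 binds the receptor chain encoded by Il6r and then recruits gp130, the product of Il6st, which leukemia inhibitory factor and oncostatin M share through the partner chains Lifr and Osmr. Janus kinases held by these receptors phosphorylate STAT3, which moves to the nucleus and switches on the acute phase genes for which the hepatocyte is known. STAT3 also switches on Socs3, whose protein binds gp130 and the kinase and ends the signal.

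The study asked how sepsis acted on the liver under different anesthetics. Liver RNA came from 48 male Sprague-Dawley rats aged 10 weeks, 12 in each of 4 groups, and each library was made from the pooled tissue of 3 rats, which gave 4 libraries per group. Single rats were not sequenced, so every SD below is between pools. Sepsis was produced by cecal ligation and puncture, and in control rats the cecum was lifted out and put back through the same incision. Livers were taken 8 h after the incision, with anesthesia kept up throughout. Rats of the Isoflurane-Sepsis (libraries 1 to 4) and Isoflurane-Control (5 to 8) groups were induced and maintained with isoflurane, an inhaled anesthetic. Rats of the Propofol-Sepsis (9 to 12) and Propofol-Control (13 to 16) groups received ketamine and xylazine for induction and then propofol, an intravenous anesthetic. All rats were ventilated with oxygen and had arterial and venous lines, and no group without anesthesia or surgery is among the 16 libraries. The deposited files of the 2 anesthetics also carry different codes, whose meaning is not given in the sources used here. Anesthetic, induction drug and whatever these codes stand for cannot be told apart wherever the anesthetics are compared.

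Between 14199422 and 49937173 reads per library were counted on genes, with a median of 19735458. Levels are given as CPM, the reads of a gene scaled to a common library size, adjusted between libraries by TMM (trimmed mean of M values). They are not corrected for gene length, so levels of different genes are not compared. The 8 hepatocyte markers, summed, lay between 76571 and 128463 CPM, so hepatocyte transcripts were abundant in every library. Library 10 of the Propofol-Sepsis group stood apart with 378 CPM over 11 brain markers, against 8.73 to 30.6 CPM in the other 15 libraries. Library 4 of the Isoflurane-Sepsis group had 606 CPM over 8 markers of stellate cells and fibroblasts, against 299 to 399 CPM in libraries 1 to 3. Some results are given with and without these libraries, but not every value that moved. Leaving out library 10 ended no call of a member in the propofol comparison.

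Most of the pathway's genes were higher in septic than in control liver, whichever anesthetic was given. Under isoflurane 7 of the 10 genes were higher and 1 was lower by edgeR's quasi-likelihood test (adjusted p below 0.05 over all 10361 genes tested), in a comparison where 25.7% of all genes tested were called higher and 24.4% lower. Under propofol 7 of the 9 genes tested were higher and 0 lower, where 20.4% of all genes were called higher and 21.7% lower. At an unadjusted p below 0.05 the numbers in either direction were 9 of 10 and 8 of 9. Over all genes at least the 5183 of 10361 and 4353 of 10348 called at the adjusted threshold pass that limit. DESeq2 and limma-voom also called 0 lower under propofol. The median log2 fold change of the members was 0.86 under isoflurane and 0.63 under propofol, beside 0.01 and -0.002 over all genes tested. Il6 and Socs1 had so few reads in control liver that they entered the tests only through their septic libraries, and a gene of that kind had to differ, so these counts are a description of the 10 genes. The 4 members called higher in each comparison and well counted in control liver were the receptor genes Il6st and Osmr, the kinase Jak2 and the inhibitor Socs3.

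**Figure D1:**
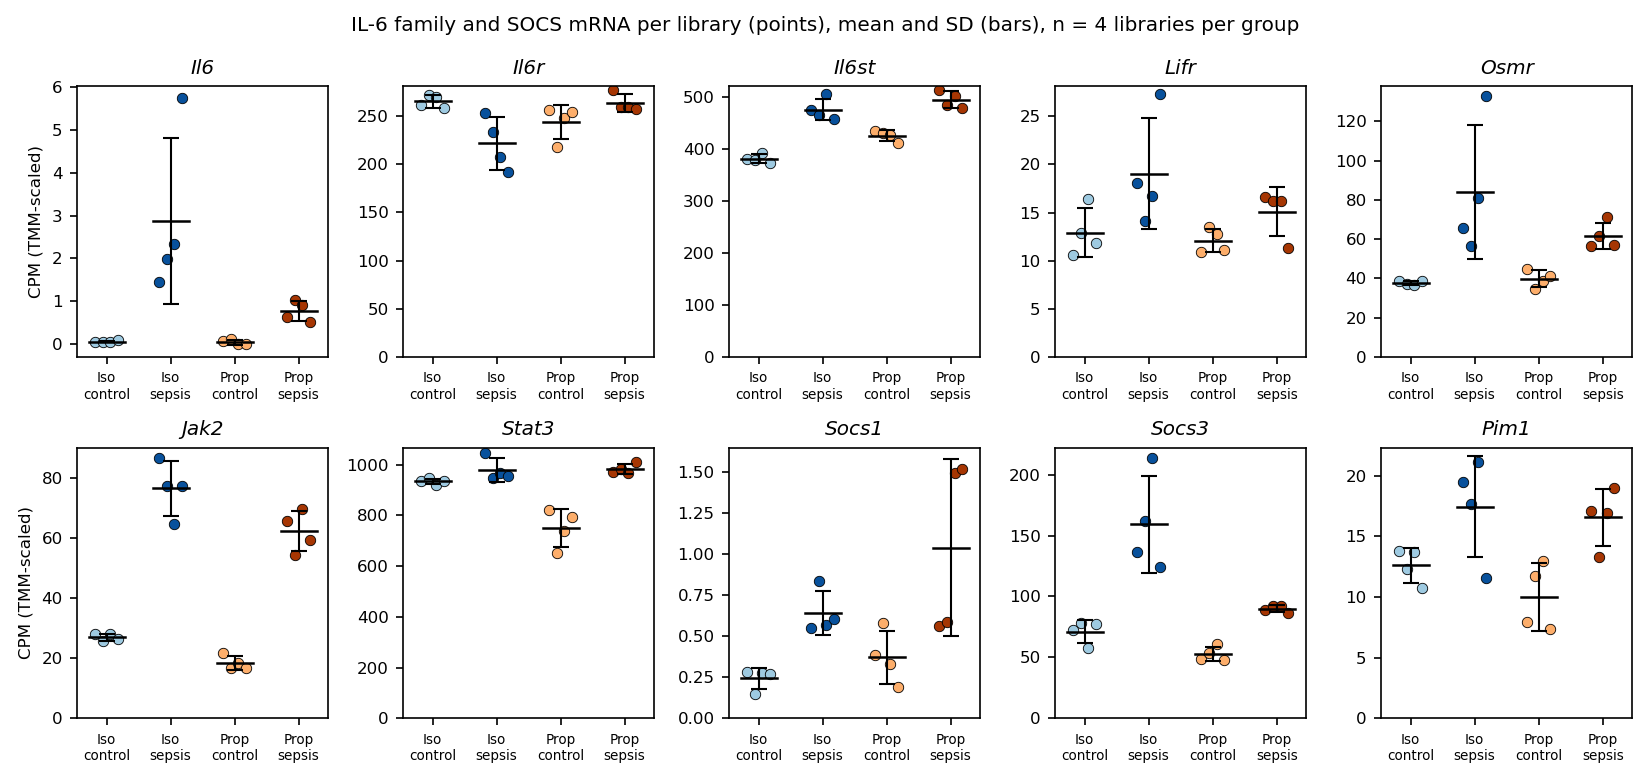
Level of each of the 10 genes in CPM (vertical axes, linear, each gene on its own scale) in the 16 libraries, with points for libraries and bars for the mean and SD of the 4 libraries of a group. On these linear axes the septic and control libraries of Jak2 lie well apart, at 54.4 to 86.5 CPM against 16.6 to 27.9 CPM, whereas Il6r and Stat3 lie close together in all but 1 group each.

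Il6 encodes the cytokine itself, which is made mainly by macrophages and other non-parenchymal cells when they sense bacterial products. The RefSeq sequence upstream of its annotated start (assembly GRCr8, chr4:5894576-5894825, minus strand) is shown because Il6 had the largest fold change of the 10 genes, and it was picked for display after its values were seen. Capitals mark the only match in the 300-base window around the start (250 bases before it and 50 after) to any of 4 motifs searched on both strands, a motif of the NF-κB family. It lies at positions -68 to -59 counted from the start, and 0.362% of the 33469 rat promoters of this length hold the motif. A match of letters is a description of the sequence and not evidence of binding.
Il6 upstream: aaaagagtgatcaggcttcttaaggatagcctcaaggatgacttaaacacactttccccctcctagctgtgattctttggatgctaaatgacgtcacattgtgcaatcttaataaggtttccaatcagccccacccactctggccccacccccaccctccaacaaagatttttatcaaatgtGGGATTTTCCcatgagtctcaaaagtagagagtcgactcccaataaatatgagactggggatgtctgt

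In septic liver under isoflurane Il6 was at 1.45, 2.00, 2.33 and 5.74 CPM (libraries 1 to 4). The isoflurane controls were at 0.0470, 0.0495, 0.0465 and 0.0833 CPM (libraries 5 to 8). Every septic library lay far above every control, and library 4 was higher than the other 3 by more than their own range. Il6 rose by 5.40 on the log2 scale (standard error 0.617, adjusted p = 0.000250 by edgeR), a 42.4-fold rise with a 95% interval of 16.1 to 111. Without library 4 the rise was 4.84 (adjusted p = 3.95e-05). Il6 passed the filter on low counts only through its septic libraries, so these p-values are a description and not independent support. The controls held 7 Il6 reads in all and the septic libraries 200, which puts the ratio of summed reads, corrected for depth, at 44.4 (exact 95% interval 21.2 to 112, counting error only). In pieces of whole liver, more cells that make a transcript and more of it per cell cannot be told apart.

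Under propofol the septic libraries had 0.621, 1.02, 0.908 and 0.517 CPM of Il6 (libraries 9 to 12). The controls were at 0.0644 and 0.116 CPM in libraries 13 and 14, and no read was counted in libraries 15 and 16, where 0 reads allow up to 0.143 and 0.144 CPM. Septic and control libraries again did not overlap, but 66 reads against 3 were too few for the filter on low counts, and Il6 was not tested in this comparison. The ratio of summed reads was 18.3 with an exact 95% interval of 5.98 to 90.8 for counting error. With no filter on low counts the log2 fold change was 4.00 (standard error 0.753, adjusted p = 0.00300 by edgeR). Markers of neutrophils and monocytes moved in the same direction as Il6. Of 11 such markers 10 were in the files, and their sum was 52.9 to 147 CPM in Isoflurane-Sepsis against 27.7 to 31.4 CPM in its controls, and 58.9 to 83.3 CPM in Propofol-Sepsis against 34.3 to 47.2 CPM. Under isoflurane 5 of the 6 tested were called higher and under propofol 5 of the 7. Over all genes tested 25.7% and 20.4% were called higher, and 24.4% and 21.7% lower. The granule genes Mpo and Elane had group means of only 0.00760 to 0.0244 CPM. Summed markers of Kupffer cells and macrophages were 368 to 492 CPM in Isoflurane-Sepsis against 324 to 401 CPM in its controls, and 323 to 397 CPM in Propofol-Sepsis against 367 to 420 CPM in its controls. These sums overlapped, but of the 8 markers tested 5 were called higher by edgeR under isoflurane (Marco, Cd163, Cd68, C1qa and Csf1r) and 1 lower (Clec4f), against 1 higher and 1 lower under propofol. Library 4, the highest in Il6, also had the highest of these sums. The part of these cells in the Il6 values was not tested.

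Il6r encodes the chain that binds IL-6, which in the liver sits on hepatocytes. Its level was 253, 234, 208 and 192 CPM in the Isoflurane-Sepsis libraries. It was 262, 272, 270 and 258 CPM in the isoflurane controls. All 4 septic libraries lay below all 4 controls, by little in library 1 and by most in library 4. Il6r fell by 0.26 on the log2 scale (standard error 0.0898, adjusted p = 0.0390 by edgeR), the only fall among the 10 genes. When single libraries were left out this call was lost without library 3, 4, 5, 6, 7 or 8, with adjusted p between 0.0510 and 0.0925 by edgeR and a change of -0.19 without library 4. Under propofol Il6r was at 277, 260, 259 and 257 CPM in septic liver and at 256, 218, 248 and 255 CPM in control liver. The groups did not overlap but nearly touched, and the difference did not pass the test (log2 fold change 0.10, 95% interval -0.04 to 0.25, adjusted p = 0.234). Summed hepatocyte markers also lay lower in septic than in control liver, at 97295 to 108444 CPM against 118748 to 128463 CPM under isoflurane and, with overlapping ranges, 76571 to 87916 CPM against 85438 to 96547 CPM under propofol. Of the 8 markers 3 were called lower by edgeR in each comparison, beside 24.4% of all genes tested under isoflurane and 21.7% under propofol. Their part in the level of Il6r was not tested.

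Il6st encodes gp130, the signaling chain that IL-6, leukemia inhibitory factor and oncostatin M share. The Isoflurane-Sepsis libraries held 474, 466, 505 and 458 CPM and the isoflurane controls 380, 378, 392 and 373 CPM. The Propofol-Sepsis libraries held 514, 484, 502 and 479 CPM and the propofol controls 435, 431, 426 and 410 CPM. Septic and control livers were fully separated under each anesthetic. Il6st rose by 0.32 on the log2 scale under isoflurane (standard error 0.0675, adjusted p = 0.00427 by edgeR), a 1.25-fold rise. Under propofol it rose by 0.21 (standard error 0.0531, adjusted p = 0.0105), a 1.16-fold rise.

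Osmr encodes the chain that pairs with gp130 to receive oncostatin M. It was at 65.9, 56.5, 81.0 and 133 CPM in the Isoflurane-Sepsis libraries and at 38.6, 37.0, 36.6 and 38.7 CPM in the isoflurane controls. In the Propofol-Sepsis libraries it was at 56.6, 61.7, 71.2 and 57.1 CPM, and in the propofol controls at 44.8, 34.3, 38.9 and 41.3 CPM. The controls of both anesthetics were close together and below every septic library, and library 4 was again the highest. Osmr rose by 1.16 on the log2 scale under isoflurane (standard error 0.235, adjusted p = 0.00378 by edgeR), and by 0.85 without library 4 (adjusted p = 0.000801). Under propofol the rise was 0.63 (standard error 0.0984, adjusted p = 0.000912).

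Lifr encodes the partner chain for leukemia inhibitory factor. Under isoflurane it was at 18.1, 14.1, 16.7 and 27.3 CPM in septic liver and at 10.6, 12.8, 16.4 and 11.8 CPM in control liver. The groups overlapped, with control library 7 above septic library 2. The log2 fold change was 0.56 (standard error 0.210) with an adjusted p of 0.0496 by edgeR, just inside the threshold. The call was lost without library 1, 3, 4, 5, 6 or 8 (adjusted p between 0.0577 and 0.125), and without library 4 the value was 0.35. It was also lost with library totals alone (adjusted p = 0.0718), with no filter on low counts (0.0596) and with a filter on a mean CPM of at least 1 (0.0516). Under propofol Lifr was at 16.6, 16.2, 16.2 and 11.3 CPM in septic liver and at 10.9, 13.5, 12.8 and 11.1 CPM in control liver. Library 12 alone of the septic libraries fell among the controls, and the difference of 0.31 was not called (adjusted p = 0.0893), whereas without library 12 it was 0.43 (adjusted p = 0.00835 by edgeR). Stellate cells and fibroblasts, whose markers were highest in library 4, moved with Lifr and Osmr in that library, and their part in these values was not tested.

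**Figure D2:**
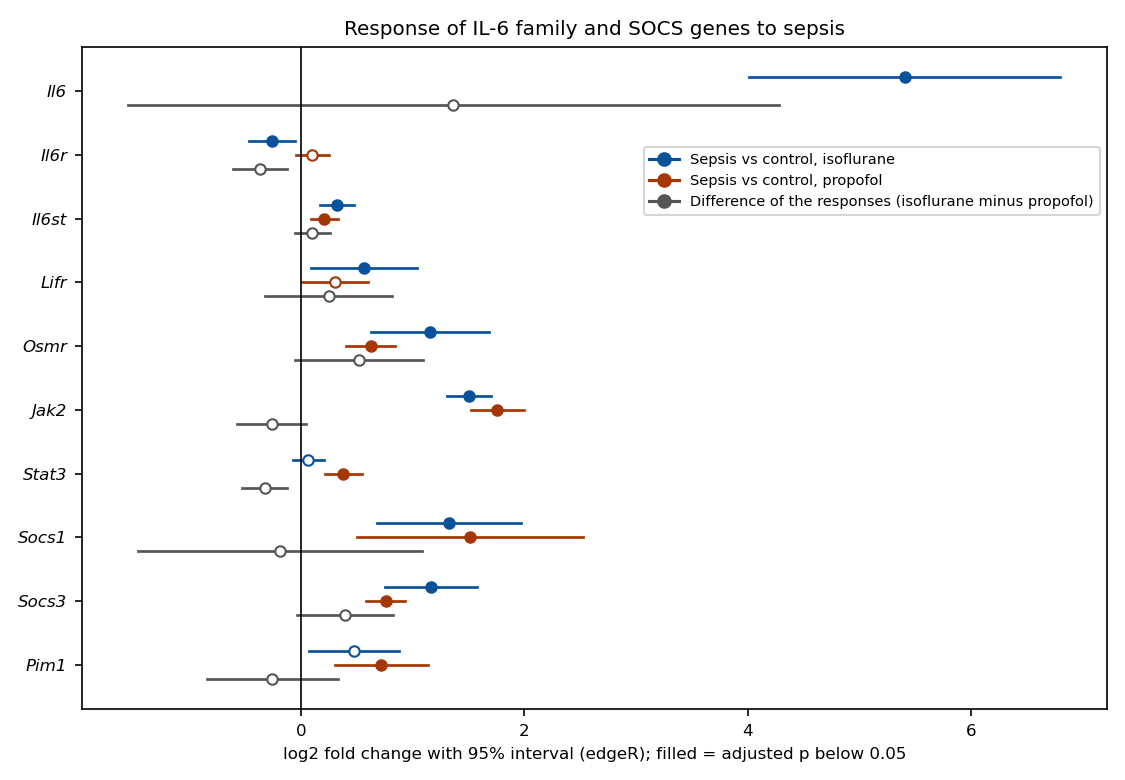
Log2 fold change of septic over control liver (horizontal axis) for each gene under isoflurane (blue) and propofol (red), and the difference of these responses (grey), with 95% intervals from edgeR and filled points for an adjusted p below 0.05. Jak2 and Socs3 lie well above 0 under both anesthetics, and no grey point is filled. Il6 has no propofol point because it was not tested there.

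Jak2 encodes one of the Janus kinases that dock on gp130. Its upstream sequence (RefSeq, assembly GRCr8, chr1:236408655-236408904, plus strand) is shown because Jak2 had the smallest adjusted p of the 10 genes in each sepsis comparison. None of the 4 motifs (the NF-κB motif, the STAT motifs TTCCNGGAA and TTCNNNGAA, every match to the first being also a match to the second, and the C/EBP motif TTGCGCAA) was found on either strand of its 300-base window, which says only that these letters are not there.
Jak2 upstream: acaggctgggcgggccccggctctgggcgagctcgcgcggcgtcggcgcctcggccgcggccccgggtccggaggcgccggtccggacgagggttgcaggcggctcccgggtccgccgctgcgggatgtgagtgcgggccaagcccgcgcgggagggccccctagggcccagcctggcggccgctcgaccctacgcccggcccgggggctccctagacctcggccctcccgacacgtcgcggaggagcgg

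Jak2 was at 86.5, 77.3, 64.5 and 77.4 CPM in the Isoflurane-Sepsis libraries and at 27.9, 25.6, 27.9 and 26.4 CPM in the isoflurane controls. In the Propofol-Sepsis libraries it was at 65.7, 54.4, 69.7 and 59.3 CPM, and in the propofol controls at 21.7, 16.9, 18.3 and 16.6 CPM. The lowest septic library of either anesthetic was above the highest control of both. Jak2 rose 2.84-fold under isoflurane (95% interval 2.48 to 3.25, log2 fold change 1.505, adjusted p = 1.75e-05 by edgeR). Under propofol it rose 3.38-fold (95% interval 2.87 to 3.98, log2 fold change 1.76, adjusted p = 8.56e-06 by edgeR). In every alternative fit it was called in both comparisons.

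Stat3 encodes the transcription factor that the kinases activate by phosphorylation, a step that mRNA counts do not measure. It was at 1048, 948, 966 and 955 CPM in the Isoflurane-Sepsis libraries and at 936, 946, 922 and 936 CPM in the isoflurane controls. These groups barely missed overlapping, and the log2 fold change of 0.07 was not called (95% interval -0.07 to 0.21, adjusted p = 0.372 by edgeR). In the Propofol-Sepsis libraries Stat3 was at 972, 982, 967 and 1010 CPM. The propofol controls were the lowest of all groups at 820, 651, 739 and 793 CPM. Stat3 rose by 0.38 on the log2 scale under propofol (standard error 0.0734, adjusted p = 0.00263 by edgeR). The septic groups of the 2 anesthetics overlapped in level, at 979 ± 46.5 and 983 ± 19.0 CPM (mean ± SD, n = 4 libraries), while their controls were at 935 ± 9.92 and 751 ± 74.6 CPM.

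Socs3 encodes the inhibitor that binds gp130 and the kinase. In the Isoflurane-Sepsis libraries it was at 137, 162, 214 and 124 CPM, and in the isoflurane controls at 72.1, 77.8, 57.5 and 77.1 CPM. The Propofol-Sepsis libraries were close together at 88.7, 92.0, 92.3 and 86.7 CPM, with the propofol controls at 49.0, 53.8, 60.9 and 47.9 CPM. Each septic library exceeded every control library of either anesthetic. Socs3 rose 2.25-fold under isoflurane (95% interval 1.69 to 2.98, log2 fold change 1.17, adjusted p = 0.00103 by edgeR). Under propofol it rose 1.69-fold (95% interval 1.497 to 1.91, log2 fold change 0.76, adjusted p = 0.000120 by edgeR).

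Socs1 encodes a related inhibitor that binds the Janus kinases directly. Its upstream sequence (RefSeq, assembly GRCr8, chr10:5389324-5389573, plus strand) is shown because it is the only member called in both sepsis comparisons whose 300-base window held one of the 4 motifs. Capitals mark a match to the STAT motif TTCNNNGAA at positions -196 to -188 counted from the start, a motif that 8.87% of the 33469 rat promoters hold. The stricter form TTCCNGGAA is held by 1.27% of promoters and TTGCGCAA by 0.17%, and neither was found in a member. The windows of the other 8 members held no match, and for Il6r, Il6st, Lifr, Osmr, Stat3 and Socs3 the annotated gene begins 154 to 11602 bases farther out than the start used for the window.
Socs1 upstream: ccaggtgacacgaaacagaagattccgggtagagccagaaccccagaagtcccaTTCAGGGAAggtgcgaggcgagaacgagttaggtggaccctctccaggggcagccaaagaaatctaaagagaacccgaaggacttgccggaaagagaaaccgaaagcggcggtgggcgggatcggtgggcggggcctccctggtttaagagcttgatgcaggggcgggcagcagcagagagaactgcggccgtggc

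Socs1 was counted with only 3 to 50 reads per library. It passed the filter on low counts only through its septic libraries, so its p-values for sepsis are a description and not independent support. The Isoflurane-Sepsis libraries were at 0.549, 0.838, 0.570 and 0.604 CPM and the isoflurane controls at 0.282, 0.149, 0.279 and 0.271 CPM. These groups did not overlap, and Socs1 rose by 1.33 on the log2 scale (standard error 0.285, adjusted p = 0.00493 by edgeR). The 45 septic and 28 control reads gave a depth-corrected ratio of 2.50 (exact 95% interval 1.52 to 4.16, counting error only). Under propofol the septic libraries fell in 2 pairs, at 0.565 and 0.585 CPM in libraries 9 and 10 and at 1.496 and 1.52 CPM in libraries 11 and 12. The propofol controls were at 0.386, 0.582, 0.333 and 0.192 CPM, so the lower pair overlapped control library 14. The rise of 1.51 (standard error 0.452, adjusted p = 0.0231 by edgeR) lost its call without library 11, 12, 13, 15 or 16, with adjusted p between 0.0503 and 0.0693, and kept it without library 10 (1.75, adjusted p = 0.00873).

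Pim1 encodes a serine/threonine kinase that supports cell survival and is a known STAT3 target. It was at 19.5, 17.7, 21.1 and 11.6 CPM in the Isoflurane-Sepsis libraries and at 13.8, 12.3, 13.7 and 10.7 CPM in the isoflurane controls. Library 4 alone of the septic libraries was among the controls. The log2 fold change of 0.48 was not called (adjusted p = 0.0513 by edgeR), and without library 4 it was 0.63 (adjusted p = 0.00290). The difference was also called by DESeq2 (adjusted p = 0.0327), with counts thinned to the shallowest library (0.0427) and with all 16 libraries in 1 fit (0.0490). In the Propofol-Sepsis libraries Pim1 was at 17.1, 13.3, 16.9 and 18.9 CPM and in the propofol controls at 7.92, 11.8, 12.998 and 7.34 CPM. These groups did not overlap, and Pim1 rose by 0.72 on the log2 scale (standard error 0.187, adjusted p = 0.0121 by edgeR).

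**Figure D3:**
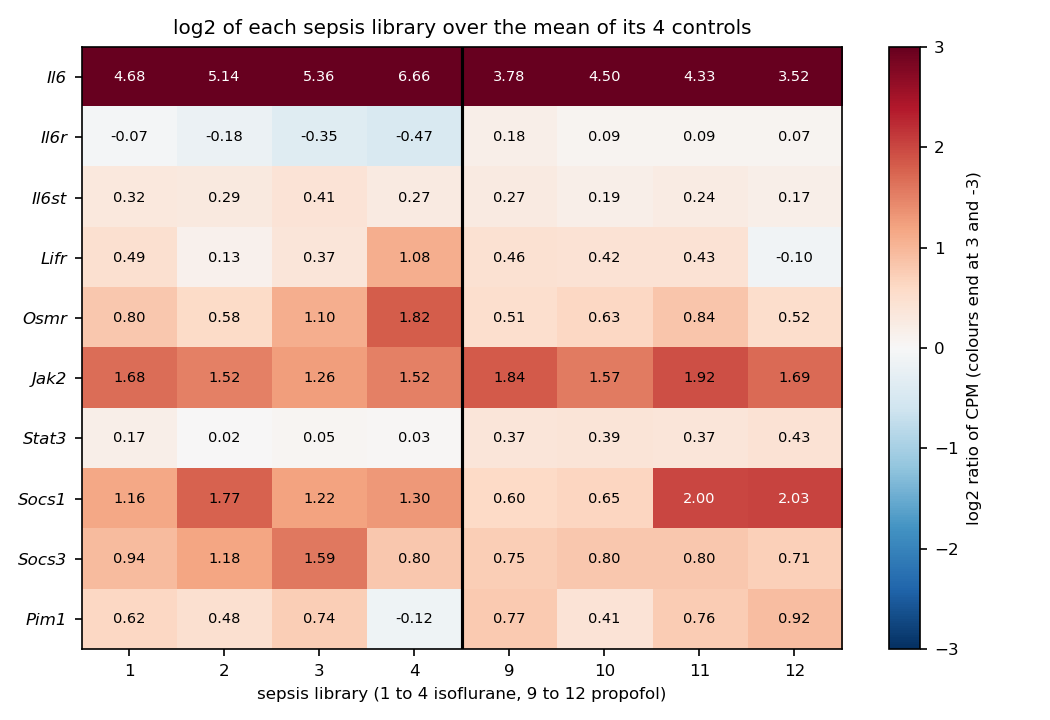
Log2 ratio of each septic library to the mean CPM of its 4 controls for the 10 genes, with libraries in columns (1 to 4 isoflurane, 9 to 12 propofol) and colours that saturate beyond 3 log2 units in either direction. Library 4 has the highest ratio of the isoflurane libraries for Il6 (6.66), Lifr (1.08) and Osmr (1.82) and the lowest for Il6r (-0.47) and Pim1 (-0.12), so 1 library does not stand apart in the same direction for every gene.

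Whether sepsis acted differently under the 2 anesthetics was tested for each gene as the interaction of anesthetic and sepsis in a fit of all 16 libraries. By edgeR 0 of the 10 genes were called, where 1.66% of the 10621 genes tested were called higher and 1.06% lower. The share of all genes with an unadjusted p below 0.05 is not given here, and 2 of the 10 genes had such a p. Those were Stat3, with a difference of -0.32 (isoflurane minus propofol, log2, standard error 0.0941, unadjusted p = 0.00363, adjusted p = 0.0708), and Il6r, with -0.37 (standard error 0.114, unadjusted p = 0.00523, adjusted p = 0.0807). DESeq2 called both (adjusted p = 0.0150 for Stat3 and 0.0292 for Il6r), and edgeR called both without library 1 (0.0228 and 0.0138). Over all alternatives the adjusted p ran from 0.0150 to 0.129 for Stat3 and from 0.0138 to 0.145 for Il6r. For the other 8 genes a difference of the responses was not detectable at this number of libraries. Their intervals were narrow for Il6st, at -0.05 to 0.26, and wide for Il6, at -1.54 to 4.28 around a difference of 1.37. That difference was 0.79 without library 4 and 0.38 without library 14, and ran from 0.38 to 1.79 over the fits that left out 1 library. For Socs3 the difference was 0.39 with an interval of -0.03 to 0.82 (adjusted p = 0.247), and 0.50 without library 4 (adjusted p = 0.129 by edgeR). For Osmr it was 0.52 with an interval of -0.05 to 1.10 (adjusted p = 0.253), which dropped to 0.21 without library 4. For Lifr it was 0.25, and 0.03 without library 4.

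Septic livers were also compared directly between the anesthetics. These comparisons use the same libraries as the sepsis comparisons above. Of the 10 genes 2 were higher in Isoflurane-Sepsis than in Propofol-Sepsis and 0 lower, where 10.6% of the 10272 genes tested were called higher and 8.66% lower. At an unadjusted p below 0.05 there were 4 in either direction. Over all genes at least the 1982 of 10272 called at the adjusted threshold pass that limit. DESeq2 and limma-voom called 2 higher and 0 lower as well. Il6 was at 2.88 ± 1.94 against 0.768 ± 0.238 CPM (SD, n = 4 libraries each), a log2 difference of 1.91 (standard error 0.462, adjusted p = 0.0264 by edgeR). Socs3 was at 159 ± 39.8 against 89.9 ± 2.72 CPM, a log2 difference of 0.82 (standard error 0.158, adjusted p = 0.0156 by edgeR). Every Isoflurane-Sepsis library exceeded every Propofol-Sepsis library for both genes. The Il6 call was lost without library 3, 9, 11 or 12 (adjusted p between 0.0510 and 0.0873) and held without library 4 (1.33, adjusted p = 0.0316). The Socs3 call was lost without library 9, 11 or 12 (0.0533 to 0.0606). With both library 4 and library 10 left out, the differences were 1.52 (adjusted p = 0.0199) for Il6 and 0.94 (adjusted p = 0.0143) for Socs3 by edgeR. Summed neutrophil and monocyte markers moved with these genes in part. They were at 102, 147 and 134 CPM in libraries 2 to 4, above all 4 Propofol-Sepsis libraries (58.9 to 83.3 CPM). In library 1, the lowest of its group in Il6, they were at 52.9 CPM, below the Propofol-Sepsis libraries. Socs3 was highest in library 3 (214 CPM), as was this sum, but lowest in library 4 (124 CPM), where the sum was 134 CPM. Summed hepatocyte markers did not overlap, at 97295 to 108444 CPM in Isoflurane-Sepsis against 76571 to 87916 CPM in Propofol-Sepsis. Most of each sum was Alb, with means of 75514 and 59080 CPM. Of the 8 markers only Hnf4a (325 against 584 CPM) and Cyp2e1 (638 against 743 CPM) had the lower mean in Isoflurane-Sepsis. The part of either cell type in these differences was not tested.

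In control liver 3 of the 8 genes tested were higher under isoflurane and 1 lower, where 21.6% of the 10314 genes tested were called higher and 21.7% lower, and Il6 and Socs1 had too few reads to be tested. Jak2 was at 26.95 ± 1.14 against 18.4 ± 2.33 CPM (SD, n = 4 libraries each), a log2 difference of 0.56 (adjusted p = 0.000430 by edgeR) with no overlap of libraries. Stat3 was higher by 0.32 (adjusted p = 0.00359) and Socs3 by 0.43 (71.1 ± 9.45 against 52.9 ± 5.96 CPM, adjusted p = 0.00679), although control library 15 of propofol had more Socs3 than library 7 of isoflurane. Il6st was the gene that was lower, by -0.16 on the log2 scale (381 ± 8.31 against 425 ± 10.6 CPM, adjusted p = 0.0135). Summed hepatocyte markers did not overlap between these controls, at 118748 to 128463 CPM under isoflurane and 85438 to 96547 CPM under propofol. Most of each sum was Alb, with means of 89763 and 64814 CPM. Of the 8 markers only Hnf4a (679 against 967 CPM) and Asgr1 (362 against 383 CPM) had the lower mean under isoflurane. When library totals alone set the scale, the median of all genes shifted to -0.15 in control liver and -0.16 in septic liver. The calls over all genes then went from 2225 higher and 2243 lower to 1139 and 3824 in control liver, and from 1092 and 890 to 594 and 2177 in septic liver. Stat3 was no longer called in control liver on that scale (0.17, adjusted p = 0.0661 by edgeR), and Osmr was called lower (-0.22, adjusted p = 0.0378).

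Put in order of their mean levels, the groups fell differently for different genes. Socs3 ran from Isoflurane-Sepsis through Propofol-Sepsis and Isoflurane-Control to Propofol-Control, and each neighbour in that order differed from the next by the fit of the pair (adjusted p = 0.0156, 0.0105 and 0.00679 by edgeR). Jak2 had the same order, but its 2 septic groups overlapped and did not differ by the test (adjusted p = 0.0905). For Osmr the septic groups overlapped and so did the controls, and only the step from septic to control was called. For Il6st the septic groups overlapped, with Propofol-Sepsis first, and the step to Propofol-Control was not called from Isoflurane-Sepsis (adjusted p = 0.0847) although those libraries did not overlap. For Lifr and Il6r no pair of neighbours was called.

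The genes whose levels followed Socs3 most closely over the 16 libraries, among 8897 genes ranked, were Spry2 (Pearson r = 0.98), Ptpn23 (0.97), Spred2 (0.96), Stk17b (0.96) and Daam1 (0.96). For Osmr they were Lgmn (0.96), Atp11a (0.96), Tnip1 (0.95), Lpl (0.94) and Rps6ka3 (0.93). The 16 points share 4 groups, so these values mostly describe likeness of the group means, and they carry no test.

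The rest of the pathway was read from lists of 56 further genes, of which 52 were in the files and 45 were tested in each sepsis comparison. Under isoflurane 23 of the 45 were higher and 4 lower, and under propofol 22 were higher and 4 lower, beside the shares over all genes given above. Their median log2 fold change was 0.27 and 0.20. Of the 8 other ligands in the files, 4 had enough reads for a test. Ebi3, the beta subunit of IL-27 and IL-35, rose by 3.37 under isoflurane (0.421 ± 0.192 to 4.18 ± 0.822 CPM, SD, n = 4, adjusted p = 9.35e-05 by edgeR) and by 1.99 under propofol (adjusted p = 0.00175). Like Il6 and Socs1, it passed the filter on low counts only through its septic libraries, so these p-values are a description and not independent support. Clcf1, a gp130 cytokine, rose by 1.59 under isoflurane (adjusted p = 0.0134), with a wide spread in septic liver (7.93 ± 0.709 to 23.9 ± 16.3 CPM). Under propofol it was at 0.17 (adjusted p = 0.637), and the difference of these responses was not called (1.41, adjusted p = 0.145 by edgeR). Cardiotrophin Ctf1 fell by 0.61 under propofol and was at -0.38 under isoflurane, not called (adjusted p = 0.0700 by edgeR). Oncostatin M itself, Osm, was at 0.647 ± 0.206 CPM in Isoflurane-Sepsis against 0.228 ± 0.102 CPM, and at 0.454 ± 0.0893 CPM in Propofol-Sepsis against 0.0811 ± 0.0309 CPM, too low to be tested within either anesthetic. Among other receptor genes Il11ra1 fell under both anesthetics (by 0.64 and by 0.37), and Cntfr rose under both (by 0.57 and by 0.96). Adam10, a protease that sheds receptor chains from the cell surface, rose by 0.296 under propofol (adjusted p = 0.0171 by edgeR). Under isoflurane it was at 0.266, just outside the threshold (adjusted p = 0.0502), and the difference of these responses was not called (-0.04, adjusted p = 0.878).

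Of the 7 other Janus kinases and STATs tested, 3 were higher and 2 lower under isoflurane, and 1 was higher and 2 lower under propofol. The shares over all genes tested were 25.7% higher and 24.4% lower under isoflurane, and 20.4% and 21.7% under propofol. Stat2, which carries the type I interferon signal, fell by 0.90 and by 0.66 (adjusted p = 0.000602 and 9.35e-05 by edgeR). Stat5a fell by 0.56 under isoflurane and was at -0.11 under propofol (adjusted p = 0.542 by edgeR). Stat6, the IL-4 transducer, rose by 0.62 and by 0.41. Of the 13 other brakes on the pathway 6 were higher and 0 lower in each comparison. Cish, a SOCS relative, rose by 1.49 and 1.29 (adjusted p = 0.000300 and 0.000835). The phosphatase genes Ptpn1 and Ptpn2, whose products dephosphorylate Janus kinases and STATs, rose by 1.09 and 0.94 under isoflurane and by 1.71 and 0.54 under propofol. Socs2, an inhibitor of growth hormone signaling, rose by 1.47 under isoflurane and was at 0.36 under propofol (adjusted p = 0.0810). Pias3, an inhibitor of STAT3, rose by 0.46 under propofol (adjusted p = 0.0158 by edgeR) and was at 0.17 under isoflurane (adjusted p = 0.232). Pim2 fell by 0.92 under isoflurane and was at -0.26 under propofol (adjusted p = 0.301 by edgeR). Pim3 rose by 0.38 under propofol and was at 0.23 under isoflurane (adjusted p = 0.0537 by edgeR).

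Of the 15 STAT3-responsive liver genes tested, 11 were higher and 0 lower in each comparison, beside 25.7% and 20.4% of all genes higher. Their median log2 fold change was 0.75 under isoflurane and 0.22 under propofol. Fga, Fgb and Fgg rose by only 0.23, 0.27 and 0.22 under isoflurane and by 0.20, 0.20 and 0.22 under propofol. Hp (0.09) and A2m (0.29) were not called under isoflurane but were higher under propofol (0.18 and 0.95). The differences of these responses were not called (-0.10 for Hp and -0.68 for A2m, adjusted p = 0.508 and 0.371 by edgeR). Myc was at -0.58 under propofol, not called. Lcn2, an acute phase protein that binds bacterial iron carriers, rose by 3.20 under isoflurane (159 ± 25.8 to 1460 ± 353 CPM) and by 2.24 under propofol (474 ± 113 to 2247 ± 935 CPM). Timp1, a protease inhibitor, rose by 2.19 and 1.68, the transcription factor gene Cebpd by 1.59 and 1.93, and Lbp, whose product carries bacterial lipopolysaccharide, by 1.58 and 1.19, each with an adjusted p below 0.001 by edgeR. Orm1, an acute phase glycoprotein, rose by 0.73 and 1.05. These genes answer to other signals as well, among them NF-κB and C/EBP factors, and the part of IL-6 in their rise was not tested. In the interaction 3 of the 46 listed genes tested were called higher and 1 lower, where 1.66% of the 10621 genes tested were called higher and 1.06% lower. Jak1 (0.46, adjusted p = 0.0220), Socs2 (1.10, 0.0385) and Myc (2.01, 0.0473) were higher in the isoflurane response, and Ptpn1 (-0.63, 0.0403) was lower by edgeR. Jak1 rose by 0.24 under isoflurane and fell by 0.23 under propofol. Myc was widely scattered in Isoflurane-Sepsis (89.6 ± 45.8 CPM) and Propofol-Control (68.9 ± 40.5 CPM). It was at 33.1 ± 1.57 CPM in Isoflurane-Control and 46.3 ± 4.07 CPM in Propofol-Sepsis (SD, n = 4 libraries each).

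**Figure D4:**
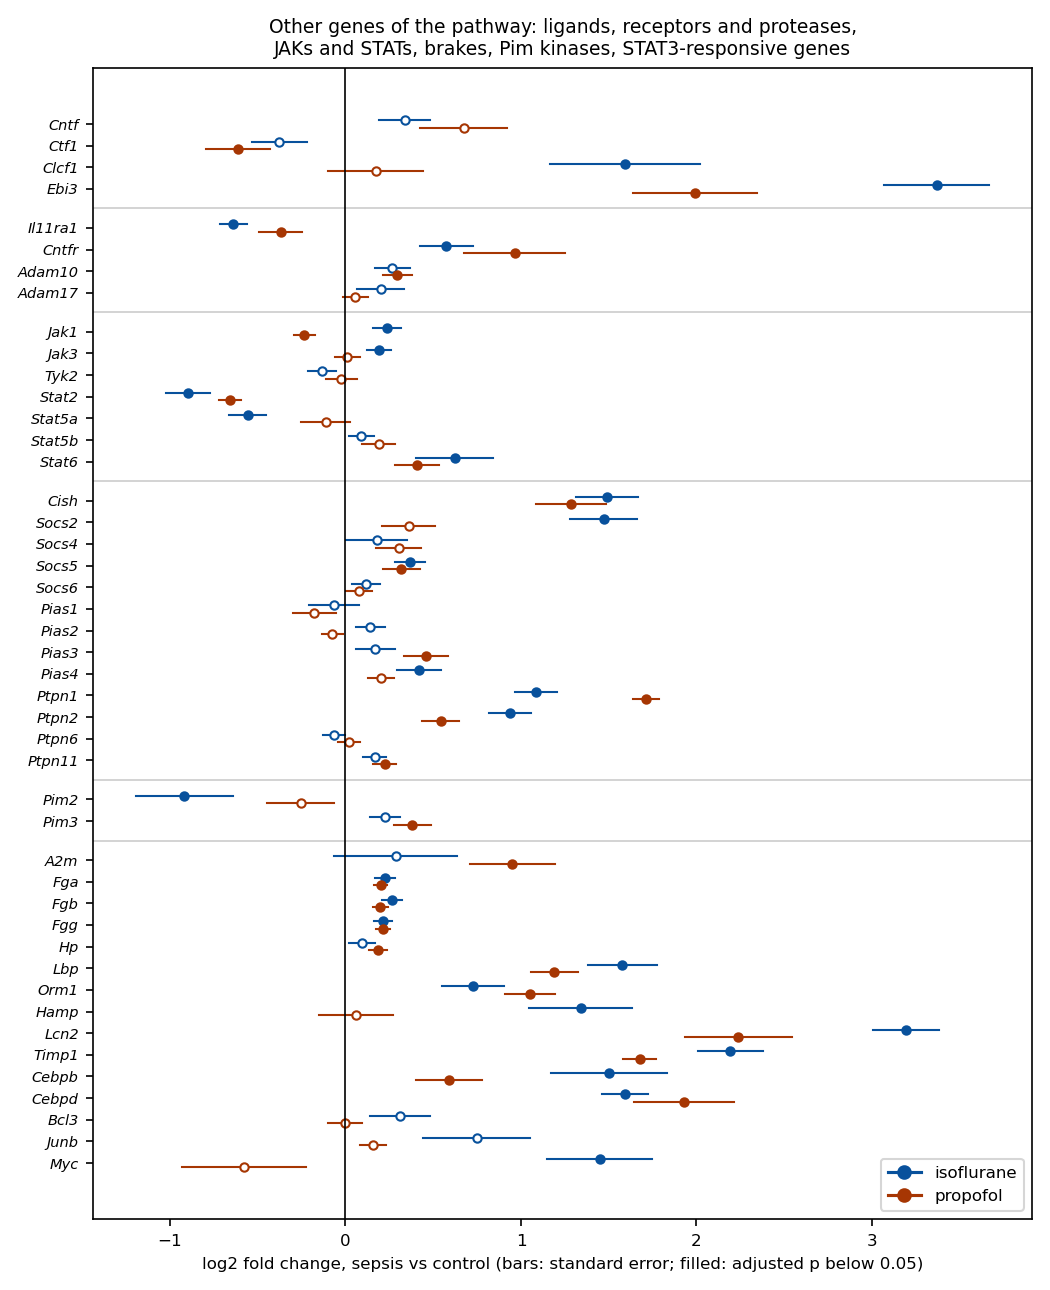
Log2 fold change of septic over control liver (horizontal axis, bars for the standard error from edgeR) for the tested genes of the pathway lists under isoflurane (blue) and propofol (red), with filled points for an adjusted p below 0.05. Brakes and STAT3-responsive genes lie mostly at or above 0 with 0 called lower, whereas Stat2 lies below 0 under both anesthetics.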

How the data were processed

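RNA of pooled rat liver was sequenced as polyadenylated RNA with a kit that keeps the strand. For each of the 16 libraries the authors deposited counts, whole numbers of reads for 17055 gene symbols, not normalized. The submitters' processing notes name STAR and the rn5 build. The counting program and its annotation were not given in the sources used here. Entries that name no gene entered neither library sizes nor tests. They held 21.6% to 25.4% (reads outside genes) and 1.07% to 1.35% (ambiguous reads) of all reads. Groups came from the labels, and 0 columns of samples were left unused. Pairs of libraries of a group differed by a chi-square of 3.35 to 96.3 per degree of freedom, so none was a duplicate.

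Counts were analysed with edgeR 4.0.16 in R 4.3.3 (quasi-likelihood test, TMM, filterByExpr at a minimum count of 10 and at least 15 reads in all, Benjamini-Hochberg adjustment over all genes tested, calls at an adjusted p below 0.05). Each comparison used only its own groups, and the interaction used all 16 libraries. Scripts were tested on simulated data. DESeq2 1.42.0, limma-voom of limma 3.58.1, other scalings and filters, thinning to the shallowest library and leaving out each library in turn were tried as alternatives. The exact permutation test of 4 against 4 libraries cannot go below p = 0.0286. Nothing says that the pools of a group were prepared separately, so p-values measure the spread between these libraries. Intervals on summed reads cover counting error only.

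All 10 members were named, and of each list up to 4 called genes per sepsis comparison with the smallest adjusted p. Hamp, Myc, Fga, Fgb, Fgg, Hp, A2m and the single cell type markers, and Socs2, Jak1 and Ptpn1 in the interaction, were named after their values were seen. Likeness was Pearson's r of log2 CPM (prior count 2) among genes whose mean log2 CPM was 1 or more. Members and lists were chosen with earlier results of these data known. Upstream sequences are from RefSeq (GRCr8), matched by symbol for 10 of 10 members, and no coordinates of the files' own build are printed. Protein sequences were not used here. A further gene of the pathway was left out of the lists and is not reported here.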

Additional observations from a re-analysis of the deposited data

Results flagged for a closer look

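For each gene and group the distance of the highest or lowest library from its nearest neighbour was compared with the range of the group by Dixon's criterion. Of 40 such groups of 4 libraries 4 passed the limit, and chance passes about 1 in 20. Il6 was at 0.0833 CPM in library 8 of Isoflurane-Control, against 0.0465 to 0.0495 CPM in the other 3 libraries, a difference of 4 reads against 1 read each. Socs1 was at 0.149 CPM in library 6 of the same group, against 0.271 to 0.282 CPM, on 3 reads. Il6r was at 277 CPM in library 9 of Propofol-Sepsis, against 257 to 260 CPM. Lifr was at 11.3 CPM in library 12 of Propofol-Sepsis, against 16.2 to 16.6 CPM, and this library decided whether the Lifr response to sepsis was called under propofol.

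The response of Il6r to sepsis had opposite signs under the 2 anesthetics, with every Isoflurane-Sepsis library below all of its controls and every Propofol-Sepsis library above all of its controls. The test of the difference gave -0.37 on the log2 scale with an adjusted p of 0.0807 by edgeR, which is not past the threshold.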

How the results depend on the processing

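Of 834 alternative values of a member's fold change, 777 kept their direction and their side of the threshold, 28 lost a call, 15 gained one and 14 changed sign. No sign change touched a called value. At an adjusted p below 0.01 Il6st (0.0105) and Pim1 (0.0121) were no longer called under propofol. At the threshold of 0.05, Il6, Il6st, Osmr, Jak2, Socs1 and Socs3 under isoflurane and Il6st, Osmr, Jak2, Stat3, Socs3 and Pim1 under propofol were called in every alternative fit that gave a value. For Il6 and Socs1 this is a description, because both passed the filter on low counts only through their septic libraries. In control liver the difference between anesthetics turned to -0.025 for Il6r and -0.055 for Lifr with library totals, and that of Lifr ran from -0.044 (without library 7) to 0.17 over the fits that left out 1 library. In septic liver that of Pim1 turned to -0.073 with library totals and ran from -0.031 to 0.22 over such fits, below 0 without library 3 or 10. That of Stat3 ran from -0.042 to 0.011, above 0 without library 2, 4 or 12, and was 0.0051 without libraries 4 and 10. The interaction of Socs1 turned to 0.062 with thinned counts and ran from -0.47 to 0.080, above 0 without library 11, 12 or 16. The causes were not tested.

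Counts of members moved as follows. At an adjusted p below 0.01, 4 members were higher under propofol, 0 were lower under isoflurane, 0 were higher in septic liver under isoflurane than propofol and 0 were lower in control liver. With library totals 2 were lower in control liver and 1 in septic liver, and with all 16 libraries in 1 fit 1 was lower in septic liver. DESeq2 called 2 lower in the interaction. Leaving out a library gave 0 to 2 higher and 0 to 1 lower in septic liver, 0 to 2 lower in the interaction (2 without library 1) and 0 to 1 lower under isoflurane. Over all genes the interaction was called for 289 genes by edgeR, 847 by DESeq2, 168 without a filter, 185 with thinned counts, 9 at an adjusted p below 0.01 and 516 without libraries 4 and 10, the last chosen after seeing the data. With all 16 libraries in 1 fit the calls between anesthetics were 4099 instead of 1982 in septic liver and 2793 instead of 4468 in control liver. The sepsis calls under propofol were 2107 higher and 2246 lower, or 1675 and 2700 with library totals. No paired analysis was possible because no replicate number is shared between groups. Depth limits Il6 and Socs1, which had 0 to 13 reads per control library.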

Other observations

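Hamp, the gene of the iron hormone hepcidin and a known target of IL-6 through STAT3, was chosen for mention after its values were seen. It was at 342 ± 82.4 CPM in Isoflurane-Control and at 996 ± 179 CPM in Propofol-Control (SD, n = 4 libraries each), a log2 difference of -1.54 (adjusted p = 9.44e-05 by edgeR). In septic liver it was at 862 ± 310 and 1045 ± 323 CPM. Hamp rose by 1.34 under isoflurane (adjusted p = 0.00541) and was at 0.06 under propofol, and the difference of these responses, 1.27, was not called (adjusted p = 0.0772 by edgeR). Lcn2 was likewise lower in Isoflurane-Control than in Propofol-Control, by -1.57 on the log2 scale (adjusted p = 4.90e-05 by edgeR). Anesthetic and induction drug cannot be told apart in these differences.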
